A study of Mus musculus with 12 samples.

Results

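The 7 genes described here encode chemokines, small secreted proteins that direct the movement of other cells: Ccl1, Ccl3, Ccl4, Ccl5, Ccl9, Xcl1 and Cxcl10. They were taken by symbol, through their gene identifiers, from 2 tables of RNA sequencing counts that each list 55487 identifiers. The RNA came from mouse OT-1 CD8+ T cells, which all carry one transgenic T cell receptor for an ovalbumin peptide. There were 12 samples in 4 groups of 3. Female and Male cells were taken from the spleen of mice of each sex and activated through CD3 and CD28, with recombinant IL2, for 3 days. WT and KD cells were both male, formed a separate batch, were electroporated and were then cultured for 3 days. KD cells were given Cas9 together with a guide RNA against Kdm5d, a Y-linked histone demethylase gene, and WT cells were given guide RNA with no Cas9. No group received Cas9 without the Kdm5d guide, so Cas9 itself and the loss of Kdm5d transcript cannot be told apart in KD against WT. The age of the mice and the number of mice behind the samples were not given, so p-values measure the spread between these samples, which may be technical.

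A chemokine binds a G protein-coupled receptor on the cell it attracts. Activated CD8 T cells are a known source of Ccl3, Ccl4 and Ccl5, inflammatory chemokines of the CC family, and of Xcl1, the ligand of Xcr1 on cross-presenting dendritic cells. Cxcl10, a ligand of Cxcr3, is a classic interferon-induced gene, with an interferon-stimulated response element (ISRE) and kappaB sites described in its promoter. Ccl1 is the ligand of Ccr8, and Ccl9 is best known as a product of myeloid cells.

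The genes lie in 4 places on GRCm38. Ccl5 (chromosome 11, 83525778 to 83530518), Ccl9 (83572919 to 83578636), Ccl3 (83647844 to 83649355) and Ccl4 (83662584 to 83664683) sit in one cluster, with Ccl4 on the plus strand and the other three on the minus strand. Ccl1 lies on the same chromosome at 82176657 to 82305690, Cxcl10 on chromosome 5 at 92346638 to 92348889, and Xcl1 on chromosome 1 at 164931644 to 164935527. The last 3 are on the minus strand, and all 7 are protein-coding. Upstream sequence is shown for 3 genes that differed between groups in different ways: Cxcl10, which was lower in KD, and Ccl3 and Xcl1, which were higher. Ccl4 and Ccl5 had no entry in the source of upstream sequences and were not searched. Each run is the 250 bases before the RefSeq start site (GRCm38.p6, minus strand, 5′ to 3′), and capitals mark motif matches on either strand:
Cxcl10, chr5:92348890-92349139: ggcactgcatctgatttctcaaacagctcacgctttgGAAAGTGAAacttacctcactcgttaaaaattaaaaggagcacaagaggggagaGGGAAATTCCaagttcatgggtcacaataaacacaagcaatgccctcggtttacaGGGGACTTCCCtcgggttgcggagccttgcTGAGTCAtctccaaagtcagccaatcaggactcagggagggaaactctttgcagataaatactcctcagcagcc
Ccl3, chr11:83649379-83649628: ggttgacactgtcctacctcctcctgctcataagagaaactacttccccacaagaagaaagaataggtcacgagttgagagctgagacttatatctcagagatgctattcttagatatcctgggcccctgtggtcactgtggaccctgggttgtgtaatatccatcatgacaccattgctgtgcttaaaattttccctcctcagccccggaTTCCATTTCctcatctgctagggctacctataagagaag
Xcl1, chr1:164935523-164935772: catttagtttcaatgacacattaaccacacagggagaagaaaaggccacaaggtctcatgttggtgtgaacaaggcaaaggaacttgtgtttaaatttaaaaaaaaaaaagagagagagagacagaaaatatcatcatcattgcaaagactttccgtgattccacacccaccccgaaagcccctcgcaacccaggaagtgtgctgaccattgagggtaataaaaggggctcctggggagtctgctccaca

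The motifs searched were an ISRE core (GAAANNGAA), the kappaB consensus, AP-1 (TGANTCA), the interferon gamma-activated site (TTCNNNGAA) and the TATA box (TATAAA), on both strands. Of 32817 promoters of this length, 7.12% held the ISRE core, 7.25% the kappaB consensus, 6.75% the AP-1 motif, 7.01% the interferon gamma-activated site and 12.4% the TATA box. The Cxcl10 window held 1 ISRE core match at -213 to -205, a kappaB match at -159 to -150, a group of overlapping kappaB matches at -104 to -94, and 1 AP-1 match at -74 to -68, counting from -1 at the first base upstream of the start. The Ccl3 window held 1 ISRE core match at -39 to -31, on the opposite strand. None of these letters was found in the Xcl1 window. The windows of Ccl1 and Ccl9, not shown, also held matches: ISRE core and kappaB for Ccl1, and kappaB, AP-1 and TATA box for Ccl9. A match describes the sequence and does not show that a factor binds there.

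Total counts were between 78748647 and 110803318 per sample. Levels below are counts per 1000000 (CPM), with library sizes scaled by TMM within each table. The cells carried CD8 T cell transcripts, with the 8 listed markers summing to between 2780 and 4053 CPM. Of these 8, 2 were called higher and 3 lower in Male, and 0 higher and 5 lower in KD. Kdm5d was at 50.9 CPM in both Male and WT and at 22.0 in KD, a log2 fold change (log2FC) of -1.21 (edgeR quasi-likelihood test, adjusted p 3.13e-08), and the Female libraries held at most 0.0213 CPM. Of 12 macrophage, monocyte and dendritic cell markers, 11 stayed under 1 CPM in every sample. Lyz2 and Csf1r were among them, and C1qa, C1qb and Siglech had 0 counts throughout. The summed level of that list was 2.29 to 3.01 CPM in Female, 3.32 to 3.54 in Male, 6.18 to 7.15 in WT and 4.48 to 5.17 in KD, most of it from Cd68. Natural killer (NK) cells also make several of these chemokines. Of 5 NK markers 4 stayed under 1 CPM, and their sum was 0.319 to 0.851 CPM in Female, 0.486 to 0.531 in Male, 1.52 to 1.68 in WT and 0.880 to 1.34 in KD. Klrb1c carried most of it and was called lower in KD (log2FC -0.86, edgeR adjusted p 0.041). B cell markers summed to 3.81 to 6.49 CPM over the 12 samples, with Ms4a1 at 0, and 7 of 7 granulocyte and mast cell markers stayed under 1 CPM, with S100a8 and S100a9 at 0. Among stromal and endothelial markers, 4 of 5 stayed under 1 CPM. Cd4 was under 1 CPM throughout. The part of other cells in the chemokine results was not tested. In such bulk RNA, fewer cells that make a transcript and less transcript per cell cannot be told apart.

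**Figure D1:**
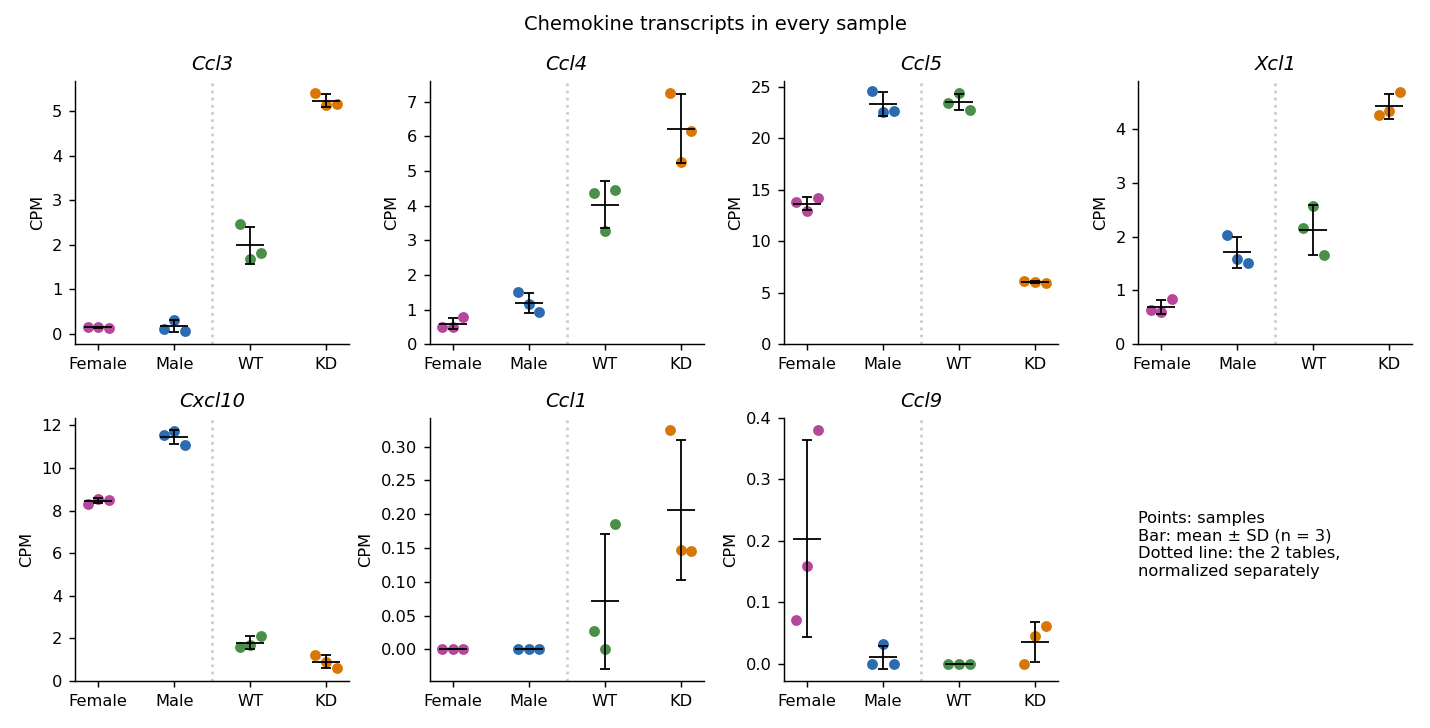
CPM of each chemokine transcript (vertical axes, each with its own scale) in the 4 groups. Points are samples and bars are means ± SD (n = 3); the dotted line separates the 2 tables, which were normalized separately. Ccl5 and Cxcl10 are lowest in KD, while Ccl3, Ccl4 and Xcl1 are highest there.

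The first comparison asked whether male and female cells differ after the same activation. Of the 7 chemokines, 5 passed the low-count filter, and 4 of these were called higher in Male at an adjusted p under 0.05: Ccl4, Ccl5, Xcl1 and Cxcl10. No tested chemokine was called lower. Over all 20208 genes tested, 49.8% were called, with 23.5% higher and 26.3% lower in Male. Non-overlapping groups were seen for the same 4 chemokines and for 58.3% of all genes tested. The median log2FC of the 5 was 0.77, beside 0.011 over all genes tested.

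Among the inflammatory CC chemokines, Ccl5 (RANTES) was at 13.8, 13.0 and 14.2 CPM in the Female samples and at 24.6, 22.6 and 22.7 in the Male samples. Every Male sample lay above every Female sample, with a log2FC of 0.77 (SE 0.056, edgeR adjusted p 1.12e-06), a 1.71-fold difference.

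Ccl4 (MIP-1 beta) was low in both sexes, at 0.507, 0.500 and 0.771 CPM in Female and 1.51, 1.16 and 0.916 in Male. These came from 43 to 75 counts per Female sample and 81 to 141 per Male sample. The groups did not overlap, though the lowest Male and highest Female samples were close, and the log2FC was 1.01 (SE 0.27, edgeR adjusted p 0.010). Without Male replicate 1 it was 0.79 and no longer passed the threshold (edgeR adjusted p 0.051, against 0.0026 to 0.051 over its alternatives).

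Ccl3 (MIP-1 alpha), the neighbour of Ccl4 in the cluster, was close to undetected in both sexes. It had 14, 15 and 13 counts in Female and 11, 30 and 7 in Male, which is 0.153 CPM ± 0.017 and 0.174 CPM ± 0.13 (SD, n = 3). The Male samples lay on both sides of the Female ones, and the log2FC of 0.19 (SE 0.58, edgeR adjusted p 0.818) was smaller than its error. It was -0.63 without Male replicate 2, which held 30 of the 48 Male counts.

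Xcl1 (lymphotactin) was at 0.637, 0.606 and 0.843 CPM in Female and at 2.03, 1.58 and 1.50 in Male. The lowest Male sample was above the highest Female sample. The log2FC of 1.29 (SE 0.21, edgeR adjusted p 0.00051) corresponds to a 2.44-fold difference, on 54 to 82 and 133 to 190 counts per sample. Part of Xcl1 lies antisense to the noncoding gene Gm20743, with 98 shared exon bases and 14.2% of its 31-base subsequences in common. Whether counting used strand was not stated, so reads of the pair may not be separable. Gm20743 itself averaged 0.0958 CPM in Female against 0.186 in Male, far below Xcl1.

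Cxcl10 (IP-10), the interferon-induced ligand of Cxcr3, was at 8.32, 8.56 and 8.52 CPM in Female and at 11.6, 11.7 and 11.1 in Male. The samples of each sex were tightly grouped and did not overlap. The difference was modest, with a log2FC of 0.44 (SE 0.064, edgeR adjusted p 0.00024), or 1.35-fold. Cxcl10 shares 133 exon bases with Art3 on the other strand, and Art3 averaged 0.211 CPM in Female against 0.358 in Male. The other ligands of Cxcr3 were nearly absent, with Cxcl9 and Cxcl11 under 1 CPM in every sample.

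The remaining pair did not pass the filter between the sexes. Ccl1, the ligand of Ccr8, had 0 counts in all 6 libraries, where a floor of 3 counts allows up to 0.0309 to 0.0354 CPM per library (counting error only). Ccl9 had 6, 15 and 37 counts in Female and 0, 3 and 0 in Male. It was the one chemokine of the 7 with more counts in Female, and the groups did not overlap. It was tested in 5 alternative fits, without the filter or with one sample left out, and was called lower in Male in each of them (edgeR adjusted p 0.0073 to 0.040). With a sample left out, it passed the filter only through its Female counts, so those calls add no separate support.

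Several transcripts of platelets also had lower levels in Male. Among 31 other listed chemokine ligands, Ppbp and Pf4, both platelet products, were the pair called lower in Male. Ppbp had 100, 153 and 130 counts in Female and 0 in each Male library. Pf4 had 101, 81 and 78 counts in Female and 0, 0 and 2 in Male. A list of 12 platelet and megakaryocyte markers, written after these values were seen, summed to 10.4 to 12.3 CPM in Female and 2.82 to 3.37 in Male. Of its 7 tested genes 6 were called lower in Male and 0 higher, among them Itga2b, at 4.99 CPM in Female and 1.20 in Male. Of 3 CD4 T cell markers, 2 were called lower and 1 higher in Male by edgeR. Cd4 was at 0.149 to 0.201 CPM in Female and had 0 counts in each Male library, Zbtb7b averaged 85.1 CPM in Female against 51.6 in Male, and Foxp3 went the other way, from 2.82 to 4.38 CPM. The part of such cells in the Ccl9 counts was not tested.

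The second comparison asked what changed in male cells after Cas9 was directed to Kdm5d. Of 6 chemokines tested, 5 were called: Ccl3, Ccl4 and Xcl1 were higher in KD, and Ccl5 and Cxcl10 were lower. Over all 20413 genes tested, 35.1% were called, with 16.8% higher and 18.4% lower in KD. Non-overlapping groups were seen for the same 5 chemokines and for 46.8% of genes tested. The median log2FC of the 6 was 0.84, beside 0.012 over all genes, and the 6 lay on both sides of 0.

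**Figure D2:**
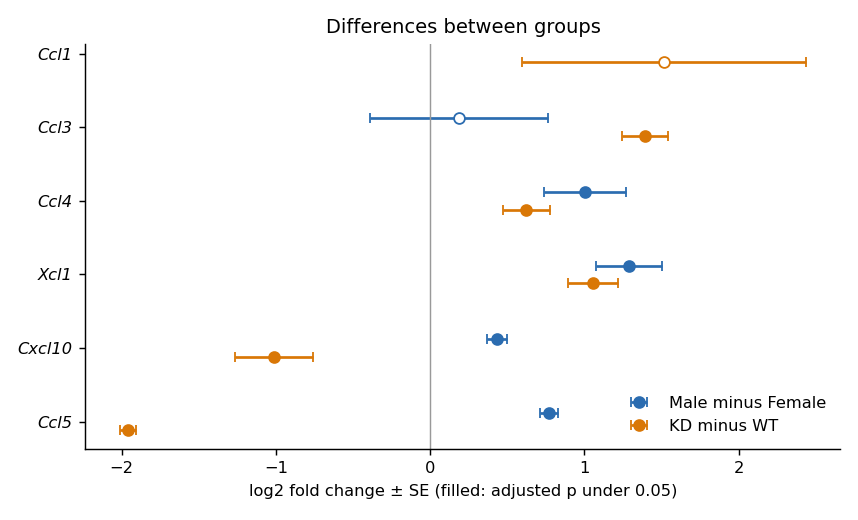
Log2FC ± SE (horizontal axis) of each chemokine in the 2 comparisons; filled points have an edgeR adjusted p under 0.05. Ccl4 and Xcl1 lie to the right of 0 in both, while Ccl5 and Cxcl10 are at 0.77 and 0.44 for Male minus Female and at -1.96 and -1.01 for KD minus WT.

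The inflammatory CC chemokines did not move together. Ccl5 was at 23.4, 24.4 and 22.8 CPM in WT and at 6.11, 6.09 and 5.96 in KD. The KD samples lay close together and far below WT. This was a 3.89-fold lower level (log2FC -1.96, SE 0.053, edgeR adjusted p 3.90e-09) and the largest fall of the chemokines tested.

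Ccl3 went the other way. It was at 2.46, 1.69 and 1.81 CPM in WT and at 5.40, 5.14 and 5.15 in KD, with no overlap. This was 2.63-fold higher (log2FC 1.39, SE 0.15, edgeR adjusted p 4.55e-05).

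Ccl4 was at 4.37, 3.26 and 4.46 CPM in WT and at 7.25, 5.26 and 6.15 in KD. The KD samples were spread but all lay above WT, with a log2FC of 0.62 (SE 0.15, edgeR adjusted p 0.0091), 1.54-fold.

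Xcl1 was at 2.16, 2.57 and 1.65 CPM in WT and at 4.25, 4.33 and 4.68 in KD. The lowest KD sample was above the highest WT sample. The log2FC was 1.06 (SE 0.16, edgeR adjusted p 0.00052), 2.08-fold. Its antisense neighbour Gm20743 was at 0.114 CPM in WT and 0.314 in KD, a log2FC of 1.43 that did not pass the threshold (edgeR adjusted p 0.053).

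Cxcl10 was scarce in this batch, at 1.61, 1.67 and 2.13 CPM in WT and at 1.21, 0.866 and 0.611 in KD. The KD samples, with 59 to 97 counts each, all lay below WT, with a log2FC of -1.01 (SE 0.25, edgeR adjusted p 0.010), or 2.02-fold lower. Art3, which overlaps it on the other strand, was at 0.265 CPM in WT and 0.181 in KD (edgeR adjusted p 0.430).

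Ccl1 and Ccl9 were near the floor. Ccl1 had 3, 0 and 18 counts in WT and 26, 16 and 14 in KD. The groups overlapped, and its log2FC of 1.52 (SE 0.92) was not past the threshold (edgeR adjusted p 0.249). Without WT replicate 3, which held 18 of the 21 WT counts, the adjusted p was 0.025, against 0.025 to 0.542 over its alternatives. Ccl9 had 0 counts in each WT library and 0, 5 and 6 in KD. It did not pass the filter, and in the one alternative that tested it, without the filter, it was not called (edgeR adjusted p 0.149).

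Levels of different transcripts were compared per kilobase of summed exon length. For Cxcl10 this length, 2252 bases, is its whole annotated gene span, introns included. Its level per kb may therefore be understated, which carries into the shares and sums below. In Female, Ccl5 led at 14.2 CPM per kb, followed by Cxcl10 at 3.76, Xcl1 at 1.33, Ccl4 at 0.898 and Ccl3 at 0.200. Male had the same order, with Ccl5 at 24.3 CPM per kb, Cxcl10 at 5.09, Xcl1 at 3.26, Ccl4 at 1.81 and Ccl3 at 0.227. Xcl1 and Ccl4 overlapped between samples in Female and not in Male.

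In WT the order below Ccl5, at 24.5 CPM per kb, was Ccl4 at 6.11, Xcl1 at 4.07, Ccl3 at 2.60 and Cxcl10 at 0.801. The ranges of Xcl1 and Ccl3 overlapped. In KD, Ccl4 at 9.43 and Xcl1 at 8.45 CPM per kb came first and overlapped, followed by Ccl3 at 6.83 and then Ccl5 at 6.31, whose ranges did not overlap. Ccl5 was thus first in Female, Male and WT and below Ccl4, Xcl1 and Ccl3 in KD.

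**Figure D3:**
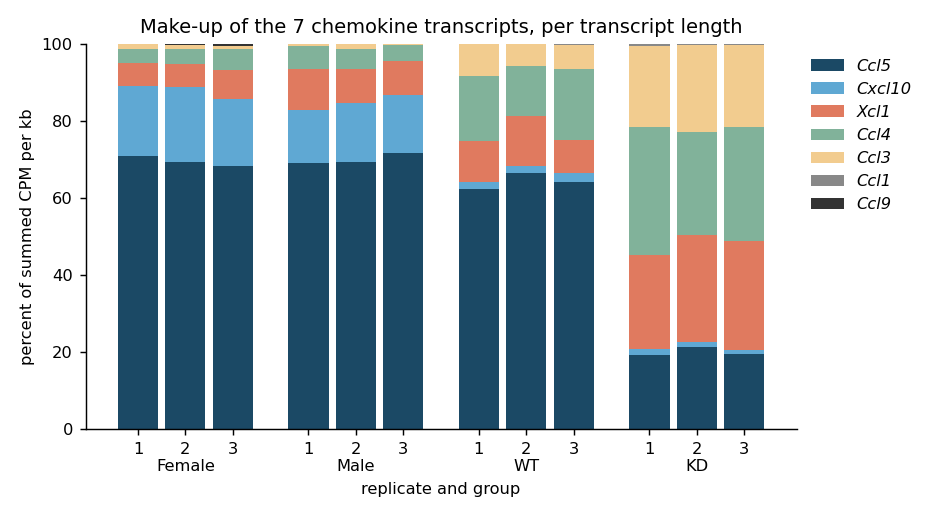
Share of each chemokine (stacked colours) in the summed CPM per kb of the 7, in percent, for each of the 12 samples. Ccl5 takes 62.5% to 71.8% of the bar in Female, Male and WT samples and 19.2% to 21.3% in KD samples.

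The make-up of the chemokine pool shows the same data as shares, with the same limit on the length of Cxcl10. Ccl5 made up 69.5% ± 1.29 of the summed level per kb in Female, 70.1% ± 1.50 in Male, 64.3% ± 2.03 in WT and 20.1% ± 1.12 in KD (SD, n = 3). The Female and Male shares overlapped even though the Ccl5 level was higher in Male. Cxcl10 made up 18.4% in Female, 14.7% in Male, 2.11% in WT and 1.26% in KD. Ccl3, Ccl4 and Xcl1 made up 21.7%, 29.8% and 26.9% in KD, against 6.79%, 16.0% and 10.6% in WT.

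The summed level was 20.5 ± 1.09 CPM per kb in Female, 34.7 ± 2.19 in Male, 38.1 ± 1.04 in WT and 31.5 ± 1.73 in KD (SD, n = 3). The 3 KD samples, at 29.8 to 33.2, all lay below the 3 WT samples, at 37.0 to 39.1. Shares of one sum are tied to each other, and no test was made on them.

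Male and WT were both male but differed in batch and electroporation, and their tables were normalized separately, so their levels are set side by side without a test. Ccl5 was alike, at 23.3 CPM ± 1.16 in Male and 23.5 ± 0.81 in WT. Xcl1 was at 1.70 CPM ± 0.29 and 2.13 ± 0.46. Ccl3 was at 0.174 CPM in Male and 1.99 in WT, Ccl4 at 1.19 and 4.03, and Cxcl10 at 11.5 and 1.80 (n = 3 in each). The samples of Male and WT did not overlap for these last 3. The share of all genes for which Male and WT did not overlap was not counted. Whether this is particular to chemokines therefore cannot be said.

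A list of chemokine receptors and atypical receptors was then read from the same fits. Not all of them, Ccrl2 and Ackr4 among these, are established receptors for the chemokines described here. Of 10 listed, 6 were tested between the sexes, with 2 called higher and 1 lower in Male and a median log2FC of 0.22. Ccrl2, a decoy-like receptor that does not signal, averaged 6.66 CPM in Female and was called higher in Male, at 11.8 (log2FC 0.82, edgeR adjusted p 5.43e-06). Cxcr3, the receptor of Cxcl10, was lower with a log2FC of -0.31 (edgeR adjusted p 0.00011).

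In KD against WT, 8 receptors were tested, 5 were called lower and 0 higher, with a median of -0.70. Ccrl2, Xcr1 and Ccr1 had log2FCs of -1.50, -1.41 and -1.06, and Cxcr3 of -0.38. The first of these were scarce: Ccrl2 was at 0.943 CPM in KD and 2.68 in WT, and Xcr1 at 1.05 and 2.78. Ccr1 was at 0.239 CPM in KD and 0.504 in WT, while Cxcr3 was at 34.3 and 44.5. Ccr8, the receptor of Ccl1, was at 0.145 CPM in KD and 0.0378 in WT and was not called.

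**Figure D4:**
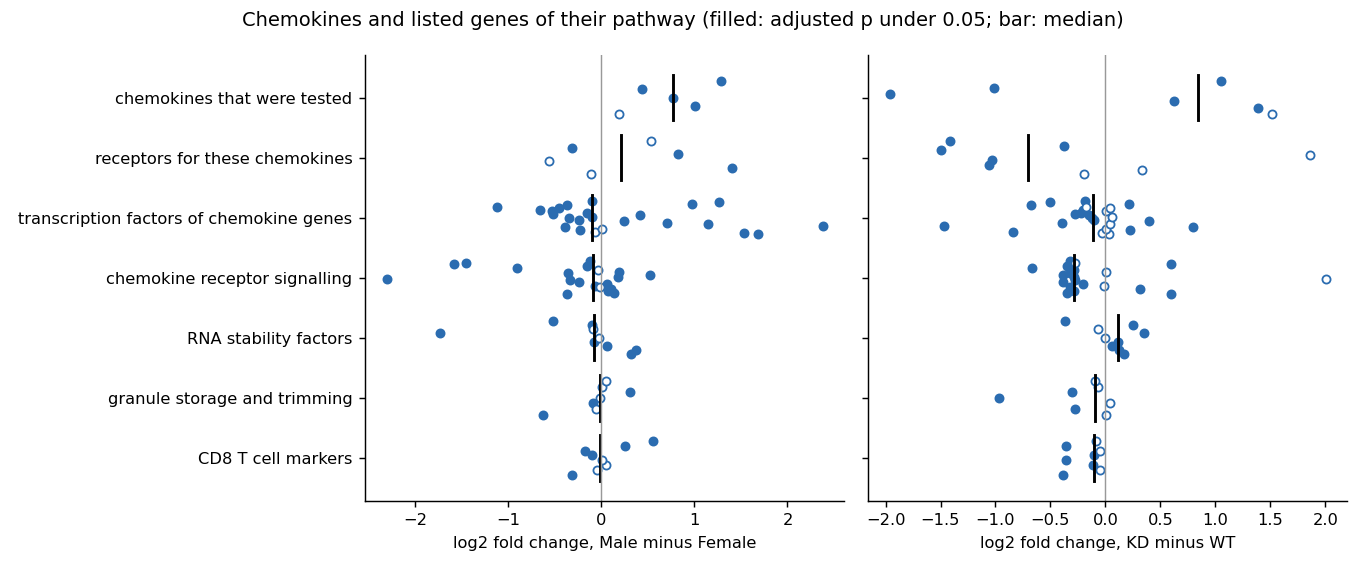
Log2FC values of single genes (points) for the chemokines and for 6 lists, Male minus Female on the left and KD minus WT on the right; filled points have an edgeR adjusted p under 0.05 and black bars are medians over the genes tested. The receptor median is 0.22 on the left and -0.70 on the right.

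Transcription factors known to act on chemokine genes were listed as well. All 24 were tested in both comparisons. Between the sexes 9 were called higher and 13 lower in Male, with a median of -0.098. Among those higher, Irf7, a master factor of interferon genes, averaged 98.4 CPM in Male against 18.9 in Female (log2FC 2.38). Stat2 and Irf8, both of the interferon pathway, had values of 1.26 and 1.15. Eomes, a T-box factor of effector and memory CD8 cells, had 1.69. Fos, an AP-1 subunit, had 1.53 (SE 0.41) at low levels, 0.627 CPM in Female and 1.81 in Male. Of the other listed AP-1 genes, Jun was called higher (0.24) and Junb lower (-0.24), and Fosl2 was not called. The 5 NF-kappaB genes were all called lower in Male, from -0.15 for Nfkb1 to -1.13 for Relb.

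Among these factors, KD against WT gave 4 higher calls and 12 lower ones, with a median of -0.11. Irf7 was at 23.9 CPM in KD and 65.9 in WT, a log2FC of -1.47, the one factor of the list past 1 log2 unit. Stat2 and Irf9, both of the interferon pathway, had -0.50 and -0.40. Runx3, a factor of the CD8 lineage, and Fosl2, an AP-1 subunit, had -0.67 and -0.84. Irf4, induced by T cell receptor signals, was called higher at 0.80.

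Downstream of the receptors, 20 signalling genes were tested in both comparisons. Between the sexes 7 were called higher and 11 lower in Male (median -0.094). The regulators of G protein signalling Rgs16 and Rgs2 had log2FCs of -1.58 and -1.45, and the receptor kinase gene Grk3 of -2.30 from less than 1 CPM. In KD 3 were called higher and 13 lower (median -0.29), none of them past 1 log2 unit. Grk3, at 2.00, was not called (edgeR adjusted p 0.056). Dock2, a motility factor of lymphocytes, had -0.29 and the G protein subunit gene Gnai2 had -0.32.

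Factors that bind unstable mRNAs, among them chemokine and cytokine messages, formed another list. Between the sexes 3 of 9 were called higher and 4 lower in Male (median -0.080). Zc3h12d, a gene of the Regnase family, had a log2FC of -1.73, from 87.5 CPM in Female to 26.4 in Male. In KD 6 were called higher and 1 lower (median 0.12), between -0.37 for Zfp36l2 and 0.35 for Zc3h12d.

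Of 8 genes for granule storage, release and trimming of chemokines, 7 were tested. Between the sexes 1 was called higher and 2 lower in Male (median -0.019), with Dpp4, a protease that trims chemokines, at -0.63. In KD 3 were called lower and 0 higher (median -0.092). Stx11, a fusion protein of cytotoxic granules, had -0.97, while Srgn, the proteoglycan that carries granule contents, had 0.044 and was not called.

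The other chemokine ligands were mostly silent. Of 31 listed, 28 stayed under 1 CPM in every sample, and 16 had 0 counts throughout. The exceptions were Ppbp and Pf4, which passed 1 CPM in Female samples, and Ccl25, a gut and thymus chemokine. Ccl25 averaged 10.4 CPM in Female, 12.6 in Male, 12.0 in WT and 12.8 in KD. Its level was called higher in Male with a log2FC of 0.28 (edgeR adjusted p 0.012) and was not called in KD. In KD, 4 of the 31 were tested and 0 were called by edgeR.

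Genes with the pattern closest to each chemokine were ranked by the root mean square difference of log2 CPM over the 12 samples, centred within each table. The ranking covered 12243 genes that were tested in both tables and had a mean log2 CPM of at least 1. Serpinb6b, a serpin gene, came closest to Ccl5 at 0.095 log2 units, followed by Ggt1 at 0.15. Serpinb6b had log2FCs of 0.59 for Male minus Female and -1.93 for KD minus WT. For Xcl1 the nearest were Ephb2 and Tpi1, both at 0.24, and for Ccl3 they were Rgmb at 0.28 and Ckap4 at 0.35. For Ccl4 they were Gm43339 and Trgj1, at 0.21 and 0.22, and for Cxcl10 Gm14005 and Gm15232, at 0.19 and 0.20. The 12 samples share 2 batches of 6, and the measure is a description.

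Among the chemokines themselves, Ccl4 and Xcl1 were closest to each other at 0.32 log2 units, and Ccl5 and Cxcl10 next at 0.41. Ccl3 and Ccl5 were farthest apart, at 1.29, although they lie in the same cluster on chromosome 11. Ccl3 and its direct neighbour Ccl4 were 0.63 apart.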

How the data were processed

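Deposited were 2 tables of gene-level counts, not normalized by the authors: all values are whole and library totals vary. The submitters' processing notes name bcl2fastq 2.20.0, HISAT2, StringTie, DESeq2 and genome build mm10. The annotation, counting settings and use of strand are not given in the sources used here. Symbols and exon lengths came from GENCODE M21 (GRCm38), which matched 55141 identifiers. The 346 unmatched ones stayed in the tests and held 2.90% to 3.46% of counts. Between 100 and 300 counts, the variance of replicates over their mean averaged 6.46 to 7.63, where independent reads give about 1. A count may not be a single fragment, but this was not tested or separated from spread between samples. Separate fits for the 2 tables, of 6 samples each, used edgeR 4.0.16 (R 4.3.3): TMM, filterByExpr, quasi-likelihood test, Benjamini-Hochberg adjustment over all genes tested, threshold 0.05. SE is the log2 fold change over the square root of F. The fit was tested on simulated data. Alternatives used DESeq2 1.42.0, limma 3.58.1, other scalings and filters, and left-out samples. The members and lists were chosen with earlier results of these data known. Listed genes were named when past a log2 fold change of 1, at most 4 per list and direction; other listed genes, overlapping genes and the platelet list were named after their values were seen. Upstream sequences came from the RefSeq table (GRCm38.p6). Some listed genes are not reported here by name.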

Additional observations from a re-analysis of the deposited data

How the results depend on the processing

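The 9 called differences, 4 between the sexes and 5 in KD, kept their direction in each of the 15 alternatives run for every gene. They also stayed past the threshold, except Ccl4 without Male replicate 1. Results near the floor changed: the log2 fold change of Ccl3 between the sexes was at -0.051 with limma-voom and -0.0072 with the replicate block, and between -0.63 and 0.53 with one sample left out. That of Ccl1 in KD ran from 0.95 to 3.71 with one sample left out. The cause was not tested. Requiring a log2 fold change of at least 1 left 2 of the 4 chemokine calls between the sexes and 4 of 5 in KD, with 1471 and 808 genes called instead of 10067 and 7171. With one sample left out, 4 to 5 and 5 to 6 chemokines were called, and 9190 to 9399 and 6073 to 6685 genes. Some of these chemokine calls were of Ccl9, between the sexes, and of Ccl1, in KD. Sample titles number the replicates in every group, but same-numbered samples did not deviate together (mean correlations of 0.0053 and -0.0080). The replicate block gave 4 and 5 chemokine calls, with 9740 and 6688 genes called. Counts of at most 37 per sample limit Ccl1, Ccl9 and, between the sexes, Ccl3.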
